A study of Drosophila melanogaster with 12 samples.

Results

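Of the 373710 GATC fragments of the X chromosome, chromosome 4 and the arms 2L, 2R, 3L and 3R, 522 were bound by *Pcl* on the control diet but not on the sugar diet. They were chosen by the measured values themselves: a log2(*Dam::Pcl/Dam*) of 2 or more in all 3 control diet replicates and of 1 or less in all 3 sugar diet replicates. They made up 0.140% of the fragments and, with touching fragments merged, formed 409 regions. The reverse rule, 2 or more in all sugar diet replicates and 1 or less in all control diet replicates, took 644 fragments (0.172%). Which set was larger depended on the scaling of the samples, with 980 control-diet-only against 257 sugar-diet-only fragments after quantile normalization. Because the choice used all 6 replicates of the only contrast, every value of binding given for these fragments describes them and no test was run on it. The values came from targeted DamID (TaDa) of flies of the genotype Gr5a;tubulinGAL80ts>UAS-LT3-Dam::Pcl, males and females together, fed 5% sucrose (control diet) or 30% sucrose (sugar diet), with 3 replicates per diet and 300 heads pooled in each. The Gr5a driver directs Dam::Pcl to the sweet taste neurons, so the signal is that of a few cells read from whole-head DNA. Each value is a ratio to flies that carry Dam alone on the same 2 diets. The labels put the flies on their diet 1 day before they were moved to 29°C for a further day to induce Dam, while the titles give 4 days and the study's methods a longer time on the diet. The depth behind a fragment is unknown, and replicates on the same diet may have been divided by a common Dam-only profile, in which case their spread leaves out the variation of that profile.

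Dam methylates the adenine of GATC near the place where the protein it is fused to meets DNA, and a fragment between neighbouring GATC sites is the smallest unit that can be read. Pcl (Polycomblike) is an accessory subunit of PRC2, the complex that methylates histone H3 at genes kept silent by Polycomb. In flies, PRC2 is brought to DNA at Polycomb response elements, and the mark then spreads over broad domains at genes of development, many of them homeobox genes. Binding outside these domains is usually narrow.

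The DNA of the regions was rich in A and T, which 4 of them show. They were taken from the regions named below for their number of fragments or for the gap between the diets, where these were short and held no UTR. A further sequence, from a region bound on the sugar diet only, was chosen after its values were seen, for contrast. Each is printed on the plus strand of dm6 with uninterrupted runs of 6 or more A or T in capitals.
*btd* intron, chrX:9695487-9695599: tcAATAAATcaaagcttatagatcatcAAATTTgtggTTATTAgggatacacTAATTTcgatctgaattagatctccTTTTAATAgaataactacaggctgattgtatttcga
147 bp from *anne*, chr4:131772-132071, the first 300 of 302 bases: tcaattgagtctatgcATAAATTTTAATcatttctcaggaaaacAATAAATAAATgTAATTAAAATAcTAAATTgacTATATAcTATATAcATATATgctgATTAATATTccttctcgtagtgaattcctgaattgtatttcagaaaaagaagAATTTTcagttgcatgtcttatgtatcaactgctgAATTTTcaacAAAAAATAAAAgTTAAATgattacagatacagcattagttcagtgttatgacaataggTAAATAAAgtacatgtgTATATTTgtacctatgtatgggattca
intergenic near *CG15167*, chr2L:18749443-18749677: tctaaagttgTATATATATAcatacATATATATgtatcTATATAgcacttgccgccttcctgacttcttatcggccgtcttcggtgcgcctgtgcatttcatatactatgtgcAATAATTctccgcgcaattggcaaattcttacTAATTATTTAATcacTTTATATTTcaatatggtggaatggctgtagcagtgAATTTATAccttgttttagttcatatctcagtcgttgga
*mub* intron, chr3L:21891827-21892085: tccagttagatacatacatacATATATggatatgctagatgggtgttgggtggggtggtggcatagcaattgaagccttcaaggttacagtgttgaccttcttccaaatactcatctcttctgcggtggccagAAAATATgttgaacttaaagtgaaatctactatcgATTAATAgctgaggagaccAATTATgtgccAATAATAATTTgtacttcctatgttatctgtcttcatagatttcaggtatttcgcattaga
sugar diet only, intergenic near *CG15167*, chr2L:18743097-18743334: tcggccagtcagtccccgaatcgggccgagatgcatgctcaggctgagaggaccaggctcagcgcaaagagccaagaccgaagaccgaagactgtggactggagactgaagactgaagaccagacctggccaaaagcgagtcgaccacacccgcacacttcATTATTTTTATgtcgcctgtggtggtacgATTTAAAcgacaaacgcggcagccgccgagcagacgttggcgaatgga
The control-diet-only sequences had a GC content of 29.2% at *btd*, 25.7% near *anne*, 35.3% near *CG15167* and 37.8% in *mub*, and A/T runs covered 29.2%, 37.0%, 25.5% and 14.3% of their bases. The sugar-diet-only sequence had a GC content of 56.7% with 7.56% of its bases in such runs. Both *CG15167* sequences lay in a broad *Pcl* domain, with opposite values. The first was at 6.44, 6.42 and 4.82 in the control diet replicates 1 to 3 and at -0.10, 0.35 and 0.48 in the sugar diet replicates, and the other at -0.97, -0.46 and 0.04 on the control diet and 3.17, 2.45 and 3.82 on the sugar diet.

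On the control diet, the median log2(*Dam::Pcl/Dam*) over the 522 fragments was 3.16 in replicate 1, 3.03 in replicate 2 and 2.33 in replicate 3. On the sugar diet it was -0.70, 0.22 and 0.06. Control diet replicate 3 was thus the lowest of its diet and sugar diet replicate 1 the lowest of the other. Replicate 3 was the lowest control diet sample in 469 of the fragments (89.8%), against 60.7% of all fragments bound on the control diet. Sugar diet replicate 1 was the lowest of its diet in 492 (94.3%). Fragment by fragment, the sugar diet mean minus the control diet mean had a median of -3.07 on the log2 scale and ran from -8.00 to -1.36. The gap between the lowest control diet and the highest sugar diet value had a median of 2.11 (1.01 to 6.11). All 3 sugar diet values were below 0 in 188 fragments (36.0%), and all 3 control diet values reached 3 in 51 (9.77%).

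**Figure D1:**
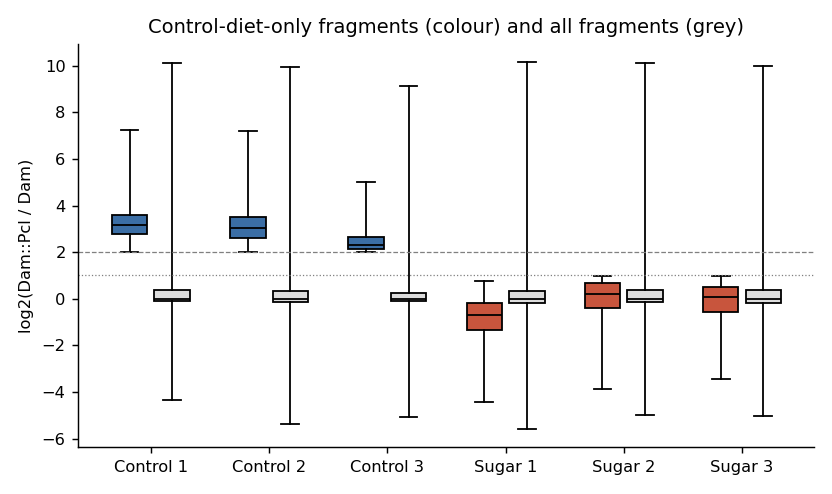
Log2(Dam::Pcl/Dam) of the 522 control-diet-only fragments (coloured boxes) and of all 373710 fragments (grey boxes) in each replicate; boxes run from the lower to the upper quartile with the median as a line, and whiskers to the lowest and highest value. The dashed and dotted lines are the thresholds of 2 and 1, and the coloured whiskers of the control diet end at or just above 2 by choice, with the box of control diet replicate 3 lowest (median 2.33).

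The thresholds part fragments of nearly the same values. The lowest control diet value was 2.0003, 2.0006 and 2.0011 in the 3 fragments just inside the threshold and 1.996, 1.994 and 1.993 in the 3 just outside it. The highest sugar diet value was 0.9990, 0.9986 and 0.9981 just inside and 1.010, 1.010 and 1.015 just outside. Of 12512 fragments at 2 or more in all control diet replicates, 9201 (73.5%) were at 2 or more in all sugar diet replicates too, 522 (4.17%) met the rule and 2789 (22.3%) lay between.

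The choice was repeated without each replicate in turn, and the replicate left out was then read. Replicates of a diet may share a Dam-only profile, so the one left out may not be an independent reading. Chosen without control diet replicate 1, 525 fragments had a median of 3.16 in it and 99.4% met the rule there, against 4.71% of all fragments. Without control diet replicate 2, 539 had a median of 3.01 in it and 96.8% met the rule, against 4.30% of all fragments. Control diet replicate 3 decided the count. Without it 1644 fragments were chosen, with a median of 1.71 in replicate 3, of which 31.8% reached 2 there and 93.4% reached 1, while 3.67% of all fragments reached 2. On the sugar diet, the 523 fragments chosen without replicate 1 had a median of -0.70 in it, the 668 chosen without replicate 2 a median of 0.47, and the 601 chosen without replicate 3 a median of 0.25. They were at 1 or less in the sample left out in 99.8%, 78.1% and 86.9% of cases, against 89.2%, 88.0% and 87.7% of all fragments. The share was above that of all fragments for replicate 1 alone. All fragments had a median of 0 in each sugar diet replicate, so most of them meet this limit. Of the fragments bound on the control diet, 73.5% were at 2 or more in all 3 sugar diet replicates.

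Most regions were a single fragment. Of the 409, 310 (75.8%) held 1 fragment, 87 held 2 and 12 held 3 or 4. Their median length was 350 bp (interquartile range 204 to 532, longest 1912), and together they covered 168 kb. The fragments themselves had a median length of 277 bp, against 196 bp for all fragments, 303 bp for sugar-diet-only fragments and 368 bp for those bound on both diets. Fragments under 100 bp numbered 141 (27.0%, against 32.2% of all), and 99 were under 50 bp. Touching fragments share a GATC site and are not independent readings. Of 113 touching pairs, 11 had identical values in all 6 replicates.

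Binding around the regions fell off within about 1 kb. The fragments next to a control-diet-only fragment had medians of 1.89 and 0.10 for the control diet mean and the sugar diet mean. Those 2 away had 0.88 and 0.27. Some of these neighbours were chosen fragments themselves, as 113 pairs touched. The flanks of the merged regions, which are not chosen fragments, had medians of 1.58 and 0.32, with the flanks of a region averaged. For fragments bound on both diets, the neighbours were at 3.09 and 3.49. By distance from the midpoint of the 409 regions, the control diet replicates averaged 2.51 ± 0.34 (SD, n = 3) and the sugar diet replicates 0.04 ± 0.39 within 250 bp. It was 1.11 ± 0.15 and 0.56 ± 0.17 between 500 and 1000 bp, and 0.53 ± 0.08 and 0.38 ± 0.08 between 10 and 20 kb. The 37 regions inside broad domains differed in their surroundings. Between 1 and 2 kb from their midpoints the control diet replicates averaged 2.60 ± 0.14 and the sugar diet replicates 2.65 ± 0.23, while within 250 bp it was 2.91 ± 0.43 and 1.28 ± 0.34. Outside domains it was 2.47 ± 0.34 and -0.08 ± 0.39 within 250 bp. Between 500 and 1000 bp it was 0.97 ± 0.15 and 0.37 ± 0.16, so the sugar diet values were lowest at the midpoint there too. The rule asked for low sugar diet values at the region but not in its flanks, so the dip follows in part from the choice. That the flanks inside domains were bound on both diets follows from how domains and fragments were defined.

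**Figure D2:**
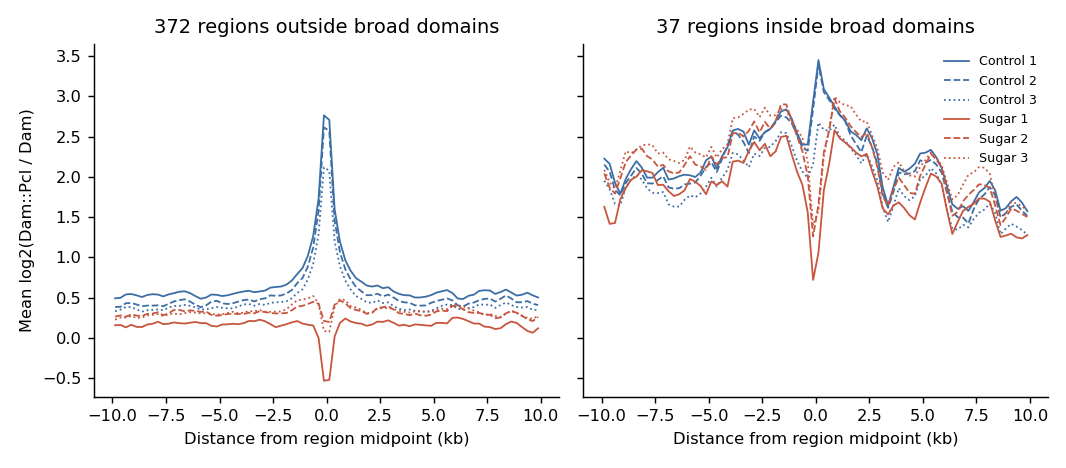
Mean log2(Dam::Pcl/Dam) in each replicate by distance in kb from the midpoint of the control-diet-only regions, for 372 regions outside and 37 inside broad Pcl domains (control diet blue, sugar diet red). The control diet lines stand above the sugar diet lines at the midpoint in both panels, by choice of the regions. The flanks on the right panel are bound on both diets.

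Broad domains were defined as runs of at least 10 kb of 1 kb bins with a mean of 1 or more in all 6 replicates, with gaps of up to 2 kb bridged. There were 310, with a median of 20 kb and a total of 7.45 Mb. Inside them lay 50 control-diet-only fragments (9.58%), against 78.0% of fragments bound on both diets and 5.25% of all fragments. The other 472 lay a median of 212 kb from the nearest domain, and 309 (59.2%) lay over 100 kb away. Among all fragments outside domains the median was 288 kb, and 71.6% of all fragments were over 100 kb away. The control-diet-only fragments were thus nearer to domains than fragments in general, but farther than other bound groups. Outside domains the median was 152 kb for sugar-diet-only fragments, 92.2 kb for all those bound on the control diet and 66.7 kb for those bound on both diets. With domains of at least 5 kb, the median distance of the control-diet-only fragments was 117 kb. Of the fragments bound on the control diet, 0.580% of those inside domains and 12.1% of those outside met the rule. The definition uses the sugar diet replicates, which lowers the share in part by construction. With domains drawn on the control diet replicates alone, 106 fragments (20.3%) were inside, against 83.1% of those bound on both diets.

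The GC content of the 522 fragments had a median of 34.3% (interquartile range 30.8% to 39.8%), below the 44.5% of all fragments, the 44.0% of fragments bound on both diets and the 51.9% of sugar-diet-only fragments. Below 40% GC lay 392 of them (75.1%), against 30.7% of all and 5.59% of sugar-diet-only fragments. The 2 kb around them had a median of 38.3%, against 43.2% around all fragments. Among fragments bound on the control diet, 15.6% of those under 30% GC met the rule, 13.8% at 30 to 35%, 4.17% at 35 to 40% and between 1.20% and 2.04% in each higher class. Outside domains and under 40% GC, 360 of 1671 such fragments met it (21.5%), and outside domains at 40% or more 112 of 2218 (5.05%). Inside domains the shares were 1.12% under 40% GC and 0.312% at 40% or more.

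**Figure D3:**
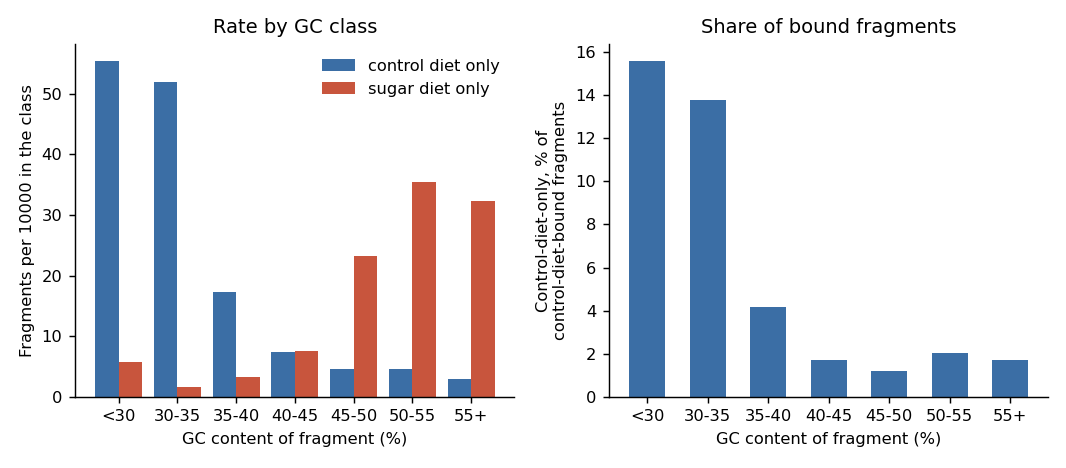
Left, control-diet-only (blue) and sugar-diet-only (red) fragments per 10000 fragments of each GC class; right, control-diet-only fragments as a percentage of the fragments bound on the control diet in the class. The blue bars fall from 55.5 to 2.90 per 10000 from the lowest to the highest GC class, and the red bars are highest at 50 to 55% GC, at 35.4.

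A difference between the diets that followed GC content was present as well in fragments bound on neither diet, those below 2 in at least 1 replicate of each diet. Among 16808 of these under 30% GC, 75.4% were lower on the sugar diet, with a median difference of -0.24 on the log2 scale, and among 60014 at 55% GC or more, 23.1% were lower, with a median of 0.14. Among the 622 fragments bound on the control diet with under 30% GC, the median difference was -1.59. When each replicate was corrected for GC content, 338 fragments met the rule, with a median GC content of 37.2%. Of these, 323 were among the 522 (61.9% of the 522). The correction fitted each replicate's departure from the mean of all 6 replicates on GC content, with a trend that could vary with that mean. It therefore also removes a diet difference of bound fragments that follows GC content, whatever its source.

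Chromosome 4, the small and largely heterochromatin-like chromosome of the fly, held 51 of the 522 fragments (9.77%) in 33 regions, with 0.961% of all fragments. That is 142 per 10000 fragments, against 11.1 to 14.99 on the other arms. Of the 408 fragments bound on the control diet there, 12.5% met the rule, against 2.85% to 5.17% elsewhere, and 2 fragments of the chromosome were bound on the sugar diet only. Its median GC content, 37.0%, was the lowest. Within fragments under 35% GC, 23.1% of those bound on the control diet on chromosome 4 met the rule and 13.6% on the other chromosomes. At 35 to 45% GC the shares were 5.52% and 2.69%, and at 45% or more 5.88% (5 of 85) and 1.48%. All fragments of chromosome 4 under 35% GC had a median of 0.34 for the control diet mean and -0.49 for the sugar diet mean. On the other chromosomes these medians were 0.13 and -0.07. How far this shift of the whole chromosome accounts for its share was not tested. After the GC correction 33 fragments of chromosome 4 met the rule, 9.76% of all that did.

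**Figure D4:**
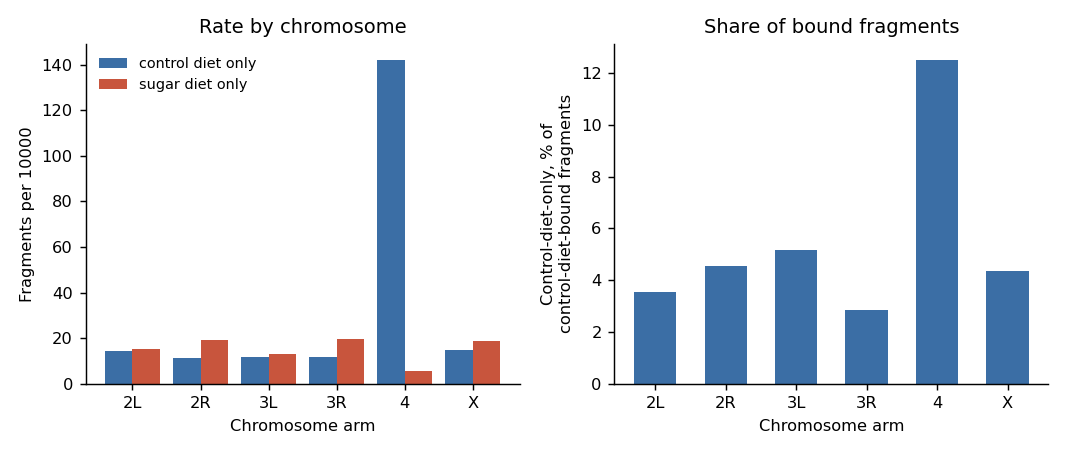
Left, control-diet-only (blue) and sugar-diet-only (red) fragments per 10000 fragments of each chromosome arm; right, control-diet-only fragments as a percentage of those bound on the control diet. Chromosome 4 stands apart in both panels, at 142 per 10000 and 12.5%.

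By annotation, 394 of the 522 fragments (75.5%) overlapped a gene, close to the 76.6% of all fragments and above the 55.7% of fragments bound on both diets. Of their bases, 48.7% were intronic, 30.7% intergenic, 13.1% in UTRs and 3.27% in coding sequence, whereas coding sequence made up 17.1% of all bases and 23.1% of those bound on the sugar diet only. Coding sequence is richer in G and C than introns are in flies, so these shares and the GC content are not separate facts. The fragments lay near starts of transcription. The median distance was 1127 bp, against 2477 bp for all fragments and 2920 bp for those bound on both diets, and 245 (46.9%) were within 1 kb, against 29.9% and 26.6%. A start lay in 38 fragments (7.28%, against 5.05% of all and 8.85% of sugar-diet-only fragments). Longer fragments have more room for a start, and length was not accounted for here. The regions overlapped 315 genes, of which 286 were protein-coding and 24 ncRNA genes. The 96 regions outside genes were a median of 1397.5 bp from one.

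By sequence copies and annotated elements, repeats were less frequent than among all fragments and more frequent than among other bound ones. At least one 50-base word found elsewhere in the genome was held by 26 of the fragments (4.98%), against 17.1% of all, 2.09% of those bound on the control diet and 1.86% of sugar-diet-only fragments, and an annotated transposable element was overlapped by 37 (7.09%), against 7.75%, 3.63% and 0.311%. Of their bases, 24.8% were soft-masked in the reference, against 20.1% of all. Motifs of proteins known to recruit Polycomb in flies were searched on both strands. GAGAG, the core of GAGA factor sites, was in 28.9% of the fragments, against 29.4% of all fragments of the same length. GCCAT, the core of Pho sites, was in 30.8%, against 41.7%, and TGTGTG, of the GT repeats that Combgap binds, in 19.9%, against 18.7%. In fragments bound on both diets the shares were 38.9%, 54.7% and 32.7%, against 37.4%, 51.0% and 26.9% for their lengths. Runs of 8 A or 8 T were in 17.8%, against 13.3%, and the longest run of A or T in a fragment had a median of 12 bases, against 10 for fragments of the same length. These letters are short and a match is not a site. GCCAT also holds more G and C than the fragments do.

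Of the regions with the most fragments, 2 held 4 and 10 held 3. One with 4 fragments was the 113 bp in the intron of *btd*, a zinc finger gene of head development, whose sequence is given above. It was at 5.61, 5.82 and 3.32 on the control diet and at -0.13, 0.41 and 0.68 on the sugar diet. The flanking fragments had means of 3.89 (control diet) and 1.39 (sugar diet), so they were lower on the sugar diet too and below the threshold of 2 there. The span of *btd*, taken here and below with 1 kb on each side, was at 3.53 ± 0.33 (SD, n = 3) and 3.41 ± 0.40. The replicates of the diets overlapped over the span (3.15 to 3.75 and 3.11 to 3.87) and were apart in the 113 bp. The 6 longest of those with 3 fragments lay 33 bp from *CG31997* on chromosome 4, in *CG42784* on 2L, over the start of *CG6426* on 2R, where it also overlapped *eEF1beta*, a translation elongation factor gene, over the start of *Npc2b*, a sterol-binding protein gene, on 3R, in an intron of *Epac*, a cAMP-activated exchange factor gene, on 2R, and 12205 bp from the nearest gene on 3L. Their control diet means ran from 2.69 to 3.86 and their sugar diet means from -1.10 to 0.01.

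Among regions of at least 200 bp, the diets were farthest apart 147 bp from *anne* on chromosome 4, where the control diet replicates were at 4.91, 4.68 and 2.64 and the sugar diet replicates at -4.45, -3.86 and -3.46, a gap of 6.11. Such negative values mean more scaled reads from Dam alone than from Dam::Pcl. The flanking fragments were also far apart, with means of 2.55 and -2.97. Next came a region in *GstE10*, a glutathione S-transferase gene, with means of 3.70 ± 0.62 and -2.28 ± 0.38 (SD, n = 3 each), one in an intron of *tou*, a gene for a chromatin-associated protein, with 3.56 ± 0.82 and -2.68 ± 0.51, and one near *CG11158*, with 3.62 ± 1.00 and -2.39 ± 0.48. In the intron of *mub*, a gene for an RNA-binding protein, the replicates were at 3.96, 3.65 and 2.62 on the control diet and -2.64, -1.71 and -2.07 on the sugar diet. The region 182 bp from tRNA:Val-CAC-1-1 was at 4.09 ± 0.62 and -1.64 ± 0.82. In 2 of the 8 the gap came from high control diet values with sugar diet values near 0, namely 78 bp from *Cyp6a20*, a cytochrome P450 gene, with 5.00 ± 0.19 and 0.06 ± 0.54, and near *CG15167*, with 5.89 ± 0.93 and 0.24 ± 0.30.

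**Figure D5:**
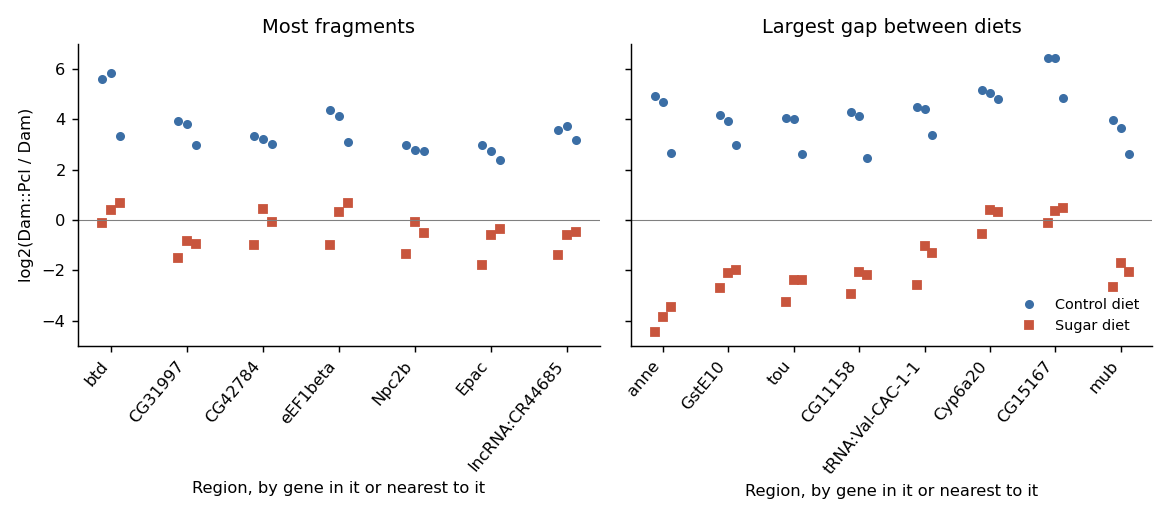
Log2(Dam::Pcl/Dam) in each replicate (blue circles control diet, red squares sugar diet) for 7 of the 8 regions with the most fragments (left) and the 8 regions of at least 200 bp with the largest gap between the diets (right), named by a gene in them or nearest to them. The widest gap is near anne, from -3.46 to 2.64.

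Over the starts of protein-coding genes, which 29 regions covered, the largest gaps were at *CG33469*, *CG31626*, *CG9331*, *Syt7*, *Mitf* and *CG40498*. Of these, *Syt7* and *Mitf* lay on chromosome 4. At *Syt7*, which codes for a synaptotagmin of vesicle release, the control diet replicates were at 3.18, 3.13 and 2.23 and the sugar diet replicates at -2.73, -1.03 and -1.43. At *Mitf*, a transcription factor gene of lysosome function, they were at 3.82, 3.42 and 2.35 and at -1.72, -0.76 and -0.82. Both lay outside broad domains, by 70.9 kb and 91.8 kb. At the other 4 the control diet means ran from 2.87 to 3.37 and the sugar diet means from -1.83 to -1.32.

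By gene, *pan* and *toy* on chromosome 4 held the most fragments, 5 each. *pan* codes for the TCF factor of Wnt signalling. Its 4 regions included a 260 bp intronic fragment at 6.18, 5.94 and 4.35 on the control diet and -0.97, 0.28 and 0.63 on the sugar diet, and the whole span was at 0.94 ± 0.35 and -0.87 ± 0.19 (SD, n = 3 each). *toy* and *ey*, which held 3, are the Pax6 genes of eye development. The span of *toy* was at 3.51, 3.44 and 2.70 on the control diet and 1.30, 2.00 and 2.30 on the sugar diet. Every sugar diet replicate of it was below every control diet replicate, as in 31.7% of all gene spans. The span of *ey* was at 2.80 ± 0.29 and 2.08 ± 0.44. Its highest sugar diet replicate, at 2.48, was above its lowest control diet replicate, at 2.47. *bt*, which codes for a titin-like muscle protein, *Tep4*, a gene of innate immunity, and *shakB*, an innexin gene of gap junctions, held 4 each. Their spans were at 0.78 ± 0.14, 0.72 ± 0.16 and 0.46 ± 0.07 on the control diet and 0.10 ± 0.11, -0.26 ± 0.07 and 0.20 ± 0.12 on the sugar diet.

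A further 20 genes held 3 fragments each, and the 2 with the largest mean difference at these fragments are described. *scro*, an NK2-type homeobox gene that the study singled out from these samples, held 3 fragments in its span and 1 more 972 bp outside it. That fragment, 22 bp long, had the highest values of the 522 in control diet replicates 1 and 2, at 7.25 and 7.20, and 4.84 in replicate 3, with -0.28, 0.36 and 0.70 on the sugar diet. A pair of touching fragments in its intron was at 5.41, 5.35 and 3.74 and at -0.73, 0.67 and 0.62. Over the whole span, which holds chosen fragments, the diets did not overlap, with 1.21, 1.20 and 0.80 against -0.21, 0.09 and 0.06. Among all gene spans, every sugar diet replicate was below every control diet replicate in 31.7% and above in 28.1%. *rn*, a zinc finger gene of leg and wing development, held 3 fragments of 61 bp in all inside a broad domain, at 5.02, 5.00 and 3.08 on the control diet and -1.10, -0.67 and -0.92 on the sugar diet. Its span went the other way, at 1.41 ± 0.07 and 1.65 ± 0.11, with the lowest sugar diet replicate at 1.52 and the highest control diet replicate at 1.46.

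Over all 472 genes with a control-diet-only fragment within 1 kb, the span mean was lower on the sugar diet in 368 (78.0%) and higher in 104, against 52.0% lower among all 18164 genes. Every sugar diet replicate was below every control diet replicate in 289 (61.2%), against 31.7% of all genes, and above in 55 (11.7%), against 28.1%. These spans hold or adjoin the chosen fragments, so the counts describe them only.

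The gene lists were read by how many of their genes had such a fragment within 1 kb, beside 472 of all 18164 genes (2.60%). The genes of most lists are longer than the median of 1.66 kb of all genes, which gives a fragment more room, so the shares are not comparable without regard to length. Of 86 developmental regulators outside the Hox complexes, mostly homeobox genes but with *rn*, *eya* and *Poxm* among them, 14 (16.3%, median span 10.2 kb) had one. Besides *toy*, *ey*, *scro* and *rn* they included *hth*, *ct*, *zfh2*, *NK7.1*, *ems*, *eya*, *toe* and *Poxm*. At *eya*, a cofactor gene of eye development, the fragment mean was 2.76 on the control diet, with -0.31 on the sugar diet, while the span was at 2.71 ± 0.14 and 3.18 ± 0.48. At *ems*, a homeobox gene of the head, these values were 3.65 and 0.31 for the fragment and 1.97 ± 0.07 and 2.63 ± 0.33 for the span. Of 8 Hox genes only *Scr* had any, a pair of touching fragments of 493 bp within its UTR at 4.68, 4.68 and 3.12 on the control diet and -0.26, 0.25 and 0.48 on the sugar diet, and its span, at 2.48 ± 0.18 and 2.33 ± 0.28, overlapped between the diets.

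Of 5 GATA factor genes, *pnr* and *srp* had such fragments, and of 17 fork head genes *foxo*, the transcription factor of insulin signalling, and *CHES-1-like*. The 1 fragment of *srp* lay outside the gene. The spans of both GATA genes had higher means on the sugar diet, with overlapping replicates. *pnr* was at 2.87 ± 0.17 (control diet) against 3.12 ± 0.30 (sugar diet), and *srp* at 2.24 ± 0.10 against 2.54 ± 0.34. The span of *CHES-1-like* was lower on the sugar diet, at 0.84 ± 0.22 against -0.13 ± 0.16. *foxo* held 3 fragments, near its ends, with a mean of 3.24 on the control diet, with -0.30 on the sugar diet. Its span was at 1.38, 1.29 and 1.04 and at 0.53, 0.79 and 0.91, without overlap, as in 31.7% of all gene spans in this direction. Of 8 Sox genes *Sox102F* on chromosome 4 had 1, and of 8 T-box genes none. Of 24 genes on a list of Polycomb group genes and their recruiters, *jing*, a zinc finger gene, and *Trl*, which codes for the GAGA factor, had 2 and 1. At *Trl* the fragment was at 3.10 and -0.63, in a span at -0.07 ± 0.19 and -0.52 ± 0.08. The span of *jing* went the other way, at 0.59 ± 0.04 (control diet) against 0.88 ± 0.12 (sugar diet). Its lowest sugar diet replicate, at 0.74, was above its highest control diet replicate, at 0.64.

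Among genes of neuronal function, 5 of 62 genes of neurotransmitter receptors and channels (8.06%, median span 23.4 kb) and 11 of 87 genes of wiring and cell adhesion (12.6%, median span 40.2 kb) had such a fragment. The channel genes were *Ca-alpha1D* and *Ca-alpha1T*, of voltage-gated calcium channels, *slo*, of a calcium-activated potassium channel, *nAChRalpha7*, of an acetylcholine receptor, and *Elk*, a potassium channel gene. At *Ca-alpha1D* the fragment mean was 3.86 on the control diet, with -0.14 on the sugar diet, at *nAChRalpha7* 3.31 and 0.04, and at *slo* 2.62 and -0.55. Their spans lay between 0.36 and 0.51 on the control diet and between -0.42 and 0.01 on the sugar diet. At each of these 3 genes every sugar diet replicate was below every control diet replicate, as in 31.7% of all gene spans. The span of *Ca-alpha1T* overlapped between the diets. It was at 0.36, 0.31 and 0.27 on the control diet and 0.16, 0.35 and 0.32 on the sugar diet. Of the wiring genes, the semaphorin genes *Sema2b* and *Sema5c* had 2 fragments each, with means of 3.70 and 0.28 at the first and of 2.28 and -0.51 at the other. The span of *Sema2b* went the other way, at 0.48 ± 0.05 on the control diet against 0.65 ± 0.10 on the sugar diet, and that of *Sema5c* was at 0.14 ± 0.08 against -0.23 ± 0.03.

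None of 9 sweet and none of 5 bitter taste receptor genes had such a fragment within 1 kb. *Gr5a*, the receptor whose promoter drives Dam::Pcl, was at 0.28, 0.28 and 0.15 on the control diet and 0.20, 0.25 and 0.12 on the sugar diet, with the nearest fragment 81.8 kb away. *Gr66a*, a bitter receptor gene, was at -0.38, -0.11 and -0.33 and at -0.49, -0.42 and -0.35, and *Pcl* itself at -0.53, -0.45 and -0.54 and at -0.14, -0.33 and -0.21. The nearest fragments lay 204 kb and 215 kb away. A ratio of *Pcl* binding does not show which genes a cell expresses, so these values do not check the cell type given by the labels.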

How the data were processed

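Targeted DamID was analysed in 3 Dam::Pcl samples per diet, and the Dam-only samples, 3 per diet, were not analysed here except as the authors' denominators. The authors discarded reads of low quality, aligned the others to dm6 with Bowtie2 in damidseq_pipeline, extended them and deposited a log2 value per GATC fragment, Dam::Pcl over Dam, after the pipeline had scaled the libraries. Its version and pseudocount are not given in the sources used here. Read depth is unknown, so no intervals from depth are given, and the number of samples limits the precision.

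Both ends of every fragment were looked up in the reference genome, and 100% lay at a GATC. GC content, soft-masking and 50-base words came from the RefSeq genome and genes from the Ensembl annotation of the same assembly, and the scripts used Python 3.11.15, numpy 2.4.6, pandas 2.3.3 and scipy 1.17.1. No statistical test was run. Shares for a motif among all fragments of the same length were averaged over 50 classes of length. The steps that choose and merge fragments and draw domains were tested on simulated data.

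The members and gene lists were chosen with earlier results of these data known. The regions and genes named are the 8 regions with the most fragments (ties by length), the 8 of at least 200 bp with the largest gap between diets, the 8 genes with the most fragments (ties by mean difference), up to 30 listed genes with a fragment within 1 kb, the 6 protein-coding genes with a start covered and the largest gap, *Gr5a*, *Gr66a* and *Pcl*, and the 3 fragments nearest each threshold. *Elk* was named after its values were seen. One of the regions is not reported here.

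The alternatives were quantile normalization, scaling by median and median absolute deviation, a GC correction, other thresholds, diet means, fragments of at least 100 bp, other merging, other domain definitions, gene spans with 1 kb on each side and each replicate left out.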

Additional observations from a re-analysis of the deposited data

How the results depend on the processing

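No paired analysis was possible because the results come from no test: the rule that chose the fragments used all 6 replicates of the contrast. The number of fragments depended on the scaling, the thresholds and control diet replicate 3. Quantile normalization gave 980 fragments in 764 regions, and scaling by median and median absolute deviation 1116 in 873, each holding all 522. The reverse rule then took 257 and 258 fragments in place of 644, so which set was larger turned with the scaling. The GC correction gave 338 in 264 regions, with 522 by the reverse rule. A control diet threshold of 2.5 gave 167 in 132 regions and one of 1.5 gave 1430 in 1104, a sugar diet threshold of 0.5 gave 305 in 249, and diet means gave 1851 in 1396. With each replicate left out, the count ran from 523 to 1644 and the regions from 409 to 1247, both highest without control diet replicate 3. The share inside broad domains was 4.59% at the sugar diet threshold of 0.5, 14.7% with diet means, 5.25% among fragments of at least 100 bp and 9.52% to 14.98% with a replicate left out, highest without sugar diet replicate 3. By domain definition it was 4.21% at a bin mean of 1.5, 12.8% at a length of 5 kb, 20.3% on the control diet alone and 14.2% with gaps of 5 kb. The median GC content stayed between 33.3% and 37.2% under every alternative run. Read depth is unknown, so its part could not be measured.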
